A study of Arabidopsis thaliana with 6 samples.

Results

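In a comparison of transgenic Arabidopsis thaliana plants, 133 genes had lower transcript levels in the line PAR9-2 than in any other line, by the rule below. They were chosen by their values on the arrays themselves. A feature of the array was taken where its log2 value in PAR9-2 lay at least 1 below the lowest of the other 5 arrays and where the mean of those 5 was 8 or more. The distance from PAR9-2 to the lowest other array is called the gap here. The clock genes CCA1, LHY, PRR9, PRR7 and PRR5, the REVEILLE genes RVE1 to RVE8, the CDF and COL genes CDF1, CDF2, CDF3, CDF5, COL1 and COL2, and the light-harvesting LHCA and LHCB genes were left out by the rule. Each locus was represented by its brightest feature that met the rule. The 133 members are 0.408% of the 32627 loci on the array and 0.668% of the 19922 loci with a feature of mean 8 or more. Because these values chose the members, their lower level in PAR9-2 is described below and not tested.

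RNA came from whole Columbia plants at 3 weeks of age, selected on agar by kanamycin at 30 mg/l and kept at 22 °C with 16 h of light. The 3 MYBPAR lines, PAR18-2, PAR9-2 and PAR36-4, carried the grapevine transcription factor VvMYBPAR behind the cauliflower mosaic virus 35S promoter, which is active in most tissues. The 3 control lines, Cont1-1, Cont2-3 and Cont5-1, carried an empty vector. One RNA sample per line was read on 1 single-colour NimbleGen array, so line, culture and array cannot be told apart, and the labels give no hour of harvest.

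The circadian clock of plants is a loop of transcription factors that are made in turn through the day. Morning factors such as CCA1 and LHY hold back evening genes such as TOC1 and ELF4, which in turn hold back the morning factors after dusk. Many genes of light perception, pigment and starch metabolism, growth and cold response follow this rhythm, so their transcript level depends on the hour at which a plant is harvested. B-box factors, phytochrome-interacting factors (PIFs) and LNK proteins link the clock to light signals.

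The 6 arrays were alike in their bulk values. Median intensities lay between 859.1 and 887 units, and any pair of arrays had a Pearson's r of 0.984 to 0.993 over the features. On each array 32.8% to 33.3% of values fell below 7.09 (log2), the limit of a low mode in which signal may be background. The leaf markers RBCS1A, RBCS2B, RCA, GAPA and PSBO1 lay within 0.16 of the mean of the other arrays in PAR9-2. Floral organ markers averaged 0.69 above that mean in PAR9-2 and 0.80 above it in PAR36-4, and lay 0.99 below it in Cont1-1. Their part in the results below was not tested, nor was that of root markers, which averaged 0.13 above the mean in PAR9-2.

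Before genes were left out, 171 features of 152 loci met the rule, 0.741% of the 23077 features with a mean of 8 or more. The 19 loci left out were 11 clock and flowering genes of the named list (CCA1, LHY, PRR9, PRR7, RVE3, RVE7, RVE8, CDF1, CDF3, COL1 and COL2) and 8 light-harvesting genes. The same rule gave 155 loci in PAR36-4, 54 in Cont5-1, 39 in Cont1-1, 4 in PAR18-2 and 2 in Cont2-3. PAR9-2 was therefore not alone in having genes that were low on 1 array. Of the 16 genes of a list of morning and day phased genes, 8 were among the loci low in PAR9-2 and 0 among those low in each of the other 5 lines. That list was drawn up with results of PAR9-2 known, and the rule used the same values, so these counts are a description. With the sign turned, 43 loci stood at least 1 above the other 5 arrays in PAR9-2 and at most 23 did so in another line. Without PAR36-4, 243 loci met the rule for PAR9-2, the 133 among them.

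**Figure D1:**
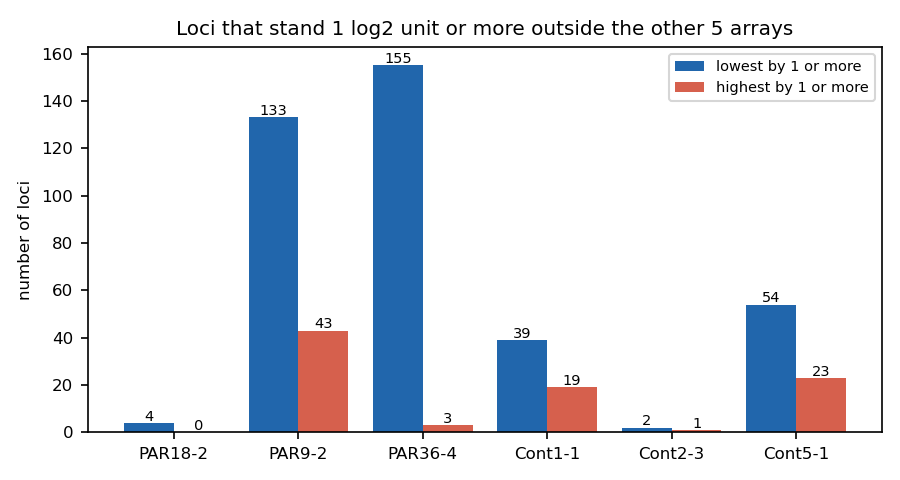
Number of loci (vertical axis) whose value in a line lay at least 1 log2 unit below (blue) or above (red) all other 5 arrays, for each of the 6 lines, with the same genes left out and a mean of the other 5 of at least 8. PAR9-2 had 133 low and 43 high loci, and PAR36-4 had 155 low and 3 high.

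The members ranged from modest to very large differences. The gap was 4 or more in 3 genes, 3 or more in 8 and 2 or more in 22, while 83 lay between 1 and 1.5. The median gap was 1.30. Relative to the mean of the other 5 arrays, members were lower in PAR9-2 by 1.05 to 5.51, with a median log2 difference of -1.75, where the median over all features was 0.02. In 118 of the 133 the gap exceeded the whole range of the other 5 arrays, and in 15 it did not. In PAR9-2 itself 14 members lay in the low mode, so their distance is a lower limit. Just inside the threshold on the gap lay MIR167d at 1.0009, J11 at 1.0047 and IAA34 at 1.0133. Just outside it lay AT5G48540 at 0.9998, AT2G32550 at 0.9974 and AT5G16410 at 0.996. On the mean, AT5G54585, AT1G15825 and AT1G02350 were just inside at 8.076, 8.147 and 8.217. AT3G48240, LECRKA4.2 and BBX30 were just outside at 7.956, 7.938 and 7.908.

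**Figure D2:**
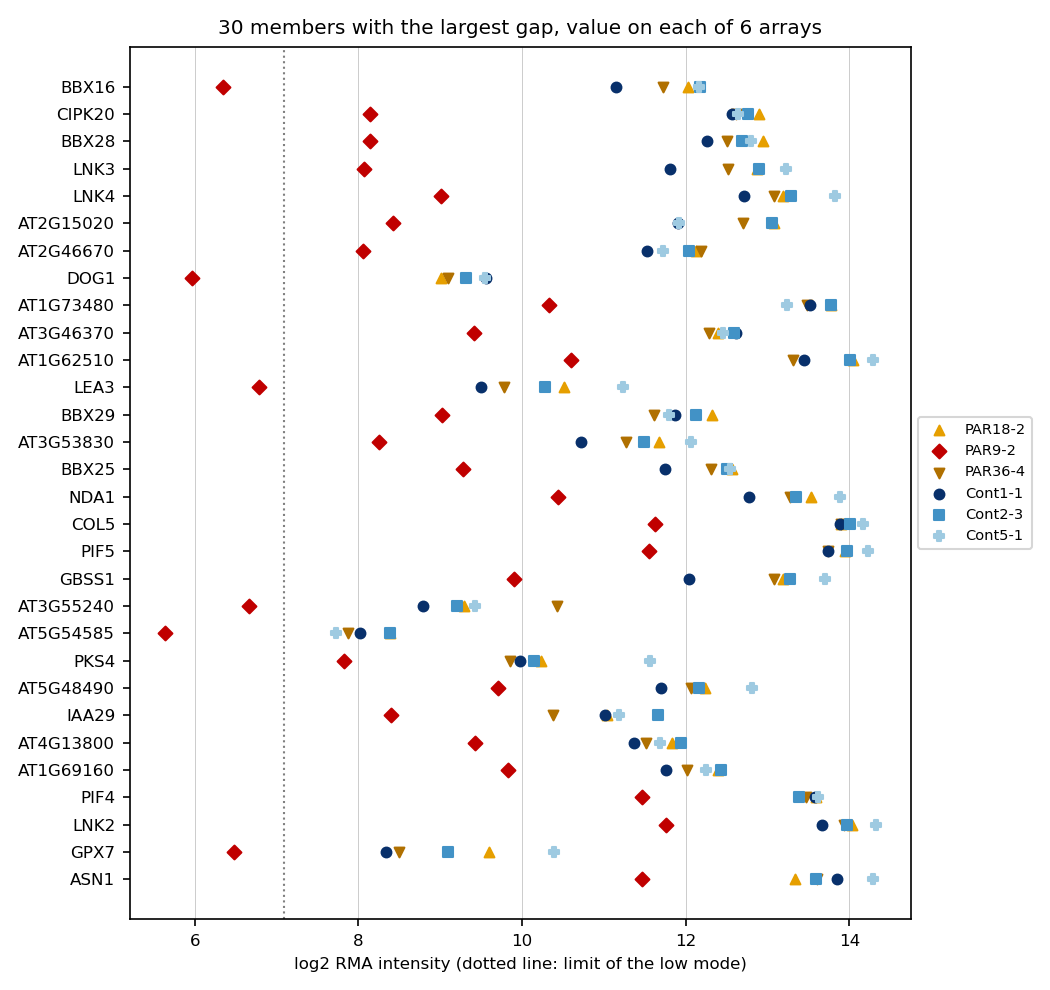
Log2 RMA intensity (horizontal axis) of the 30 members with the largest gap, 1 row per gene and 1 point per array, with PAR9-2 as red diamonds and a dotted line at the low-mode limit of 7.09. In each row the PAR9-2 value stands apart on the left, by 4.81 in BBX16 and by 1.86 in ASN1.

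The LNK genes were the members nearest to the clock core, and all 4 of the family were members. LNK proteins are coactivators that join REVEILLE factors at the promoters of evening genes, and their transcripts are known to peak in the morning. LNK3 had a log2 value of 8.07 in PAR9-2, against 12.87 and 12.52 in PAR18-2 and PAR36-4 and 11.81, 12.90 and 13.23 in Cont1-1, Cont2-3 and Cont5-1. It was 24.2-fold lower in PAR9-2 than the mean of the other log2 values. LNK4 stood at 9.01, against 13.19 and 13.08 in the other MYBPAR lines and 12.71, 13.29 and 13.82 in the empty vector lines. LNK2 at 11.76 and LNK1 at 11.53 were lower by 2.22 and 1.95 than the mean of the other 5 arrays. In all 4 genes the next lowest array was Cont1-1, and the values of the other MYBPAR lines lay within the range of the empty vector lines, except for LNK1 in PAR18-2 at 13.80.

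B-box factors were the largest family among the members, with 8 genes. They are zinc finger proteins that act in light signalling and flowering. BBX16, also named COL7, had the largest gap of all members. It stood at 6.34 in PAR9-2, in the low mode, against 12.03 and 11.72 in PAR18-2 and PAR36-4 and 11.15, 12.17 and 12.16 in the empty vector lines. With PAR9-2 set to the low-mode limit it was at least 27-fold lower. BBX28, which is known to interfere with the light factor HY5, had 8.14 in PAR9-2 and between 12.26 and 12.94 elsewhere, a 22.6-fold difference. BBX29 and BBX25 lay lower by 2.92 and 3.05, COL5 by 2.36 and BBX18 by 2.29. BBX24, which with BBX25 restrains HY5-dependent light growth, lay lower by 1.51, and BBX32 by 1.88.

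B-box genes beyond the members differed in direction. Of a list of 19 B-box genes, 6 were members, since BBX28 and BBX29 were not on that list. PAR9-2 was the lowest array for 12 of the 19 and the highest for 5, and the median difference was -0.65. Over all features it was the lowest array for 21.2% and the highest for 23.8%. COL9 stood at 13.72 in PAR9-2 against 9.76 to 13.11 elsewhere, and BBX8 at 12.63 against 8.94 to 12.54. BBX30, at 4.74 in PAR9-2 against 6.82 to 8.65, had a gap of 2.09 but missed the threshold on the mean. BBX31 was also lowest in PAR9-2, at 6.04 against 6.66 to 8.84.

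PIF factors and genes of elongation growth gave 10 members. PIFs are basic helix-loop-helix factors that phytochromes destroy in the light, and PIF4 and PIF5 transcripts are known to be abundant in the day and low in the first part of the night. PIF4 had 11.47 in PAR9-2, 13.59 and 13.47 in the other MYBPAR lines and 13.58, 13.38 and 13.62 in the empty vector lines, so the other 5 arrays differed by only 0.24. PIF5 had 11.55 in PAR9-2 and 13.74 to 14.23 elsewhere. The gap was 1.92 for PIF4 and 2.19 for PIF5, several times the range of the other arrays. PIF7, which acts in shade, was lower by 1.47, and HFR1, which binds PIFs and blocks them, by 1.53.

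Growth genes downstream of light and hormones were lower in PAR9-2 too. IAA29, an auxin response repressor induced by PIFs, had 8.40 in PAR9-2, 11.04 and 10.38 in the other MYBPAR lines and 11.01, 11.66 and 11.19 in the empty vector lines. PRE1, a small helix-loop-helix protein that promotes elongation, was lower by 2.17, the gibberellin synthesis gene GA20OX1 by 1.73 and the shade homeobox gene HB-2 by 1.24. IAA34 and ILR2 were lower by 1.43 and 1.92. Of 7 PIF and shade growth genes on a list, 3 were members and 6 were lowest in PAR9-2. The exception was PIL1, with a difference of 0.01.

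Light perception and movement added 5 members. PKS4 and PKS2, phytochrome kinase substrates that orient growth, lay lower by 2.54 and 1.62. PKS4 had 7.82 in PAR9-2, 10.23 and 9.85 in the other MYBPAR lines and 9.98, 10.15 and 11.56 in the empty vector lines. JAC1, needed for chloroplasts to move with light, was lower by 2.16, the phototropism gene RPT2 by 1.46 and AFR, a gene of far-red signalling, by 1.80. The photoreceptors themselves were not members. Of 10 light signalling genes on a list only HFR1 was one, and PHYA, PHYB, CRY1 and CRY2 differed by -0.58, -0.28, -0.50 and 0.08.

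Chloroplast, pigment and redox genes gave 10 members. SIG5, a sigma factor that directs plastid transcription in blue light, had 11.26 in PAR9-2, 13.74 and 13.29 in the other MYBPAR lines and 13.10, 13.66 and 13.90 in the empty vector lines. NDA1, a light-induced mitochondrial NAD(P)H dehydrogenase, had 10.44 in PAR9-2 and 12.77 to 13.88 elsewhere. GLK2, an activator of chloroplast development, was lower by 2.07. GPX7, a chloroplast glutathione peroxidase, stood at 6.48 in the low mode and was at least 4.27-fold lower, with values of 8.34 to 10.39 elsewhere.

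Enzyme genes for pigments were lower by smaller amounts. CAO, which makes chlorophyll b, had 13.05 in PAR9-2 against 14.14 to 14.45, and PORA, a light-dependent chlorophyll synthesis enzyme, 11.74 against 13.16 to 14.06. ABA1, the zeaxanthin epoxidase, and NCED4, a carotenoid cleavage enzyme, were lower by 1.41 and 1.49. PDS1, which makes the precursor of plastoquinone and tocopherols, was lower by 1.56 and the thylakoid phosphate transporter PHT4;1 by 1.15. Of 18 tetrapyrrole and chlorophyll synthesis genes 2 were members, PAR9-2 was the lowest array for 12 and the median difference was -0.20. Of 13 carotenoid and plastid isoprenoid genes 2 were members and PAR9-2 was the lowest array for 7, with a median of -0.24.

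Starch, sugar and dark-induced genes gave 8 members. GBSS1, which makes amylose and is known to peak near dawn under CCA1 and LHY, had 9.90 in PAR9-2, 13.19 and 13.08 in the other MYBPAR lines and 12.04, 13.28 and 13.70 in the empty vector lines. It was 8.92-fold lower. It stood alone in the starch list of 11 genes, in which the other 10 had differences between 0.03 and 0.59 above the mean of the other arrays. PAR9-2 was the highest array for 5 of them, among them the starch breakdown genes SEX1, SEX4, LSF1, BAM3 and ISA3.

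ASN1, an asparagine synthetase raised by darkness and sugar shortage, had 11.47 in PAR9-2, 13.33 and 13.60 in the other MYBPAR lines and 13.85, 13.59 and 14.29 in the empty vector lines. The dark-induced genes SEN1 and DIN2 were lower by 1.60 and 1.79. BZO2H3, a bZIP factor of the energy starvation response, was lower by 1.36 and the sugar transporter SWEET15 by 2.74. PGL5 and the galactinol synthase GolS1 lay lower by 1.81 and 1.42. DIN10, the third gene of the dark and sugar starvation list, differed by -0.03. So the members include genes known to be raised by light, such as SIG5 and NDA1, and genes known to be raised by darkness, such as ASN1 and SEN1.

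Genes of abscisic acid, seed dormancy and calcium-linked signalling gave 7 members. CIPK20, a kinase that calcium sensors of the CBL family bind, had the gap second to BBX16. It had 8.14 in PAR9-2, 12.89 and 12.62 in the other MYBPAR lines and 12.56, 12.76 and 12.64 in the empty vector lines, so the other 5 arrays lay within 0.34 of each other. It was 23.5-fold lower. Its neighbour on the chromosome, DOG1, a control gene of seed dormancy, stood at 5.97 in the low mode, against 9.01 to 9.56 elsewhere, and was at least 4.65-fold lower. LEA3 was at least 9.0-fold lower, with 6.79 in PAR9-2 and 9.50 to 11.23 elsewhere. NCED3, which makes abscisic acid, and CYP707A4, which breaks it down, were lower by 1.57 and 1.54. AIRP2 and CIPK17 lay lower by 1.41 and 1.42.

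Besides CYP707A4, described with abscisic acid, 6 members were cytochrome P450 genes, 4 of them of the CYP71B subfamily. CYP71B4 had 11.23 in PAR9-2 against 12.81 to 12.91 elsewhere. CYP71B2, CYP71B13 and CYP71B26 were lower by 2.03, 1.78 and 1.5, CYP89A9, which oxidises chlorophyll breakdown products, by 1.34, and CYP78A9 by 1.47. Beyond these groups 13 members had a gene name and were lower by 1.05 to 2.63. They were the ethylene synthesis gene ACS8, MAKR6, the MYB repressor gene MYBL2, UP6, CRK21, SRF4, the thionin gene THI2.2, ABCF5, AHL17, KCS16, SYTC, J11 and the microRNA locus MIR167d. The other 62 members are known here by locus only and were lower by 1.13 to 4.11, with a median of -1.70. Largest among them were AT2G15020, with 8.42 in PAR9-2 against 11.90 to 13.08, and AT2G46670, with 8.06 against 11.53 to 12.19. AT1G73480, AT3G46370, AT1G62510 and AT3G53830 followed, lower by 3.23, 3.06, 3.22 and 3.19. AT3G55240, AT5G54585, AT5G48490, AT4G13800 and AT1G69160 were the others among the 30 largest gaps, with gaps of 2.14, 2.09, 1.99, 1.93 and 1.92. Of these, AT3G55240 and AT5G54585 stood at 6.66 and 5.64 in the low mode and were at least 5.06-fold and 1.98-fold lower.

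**Figure D3:**
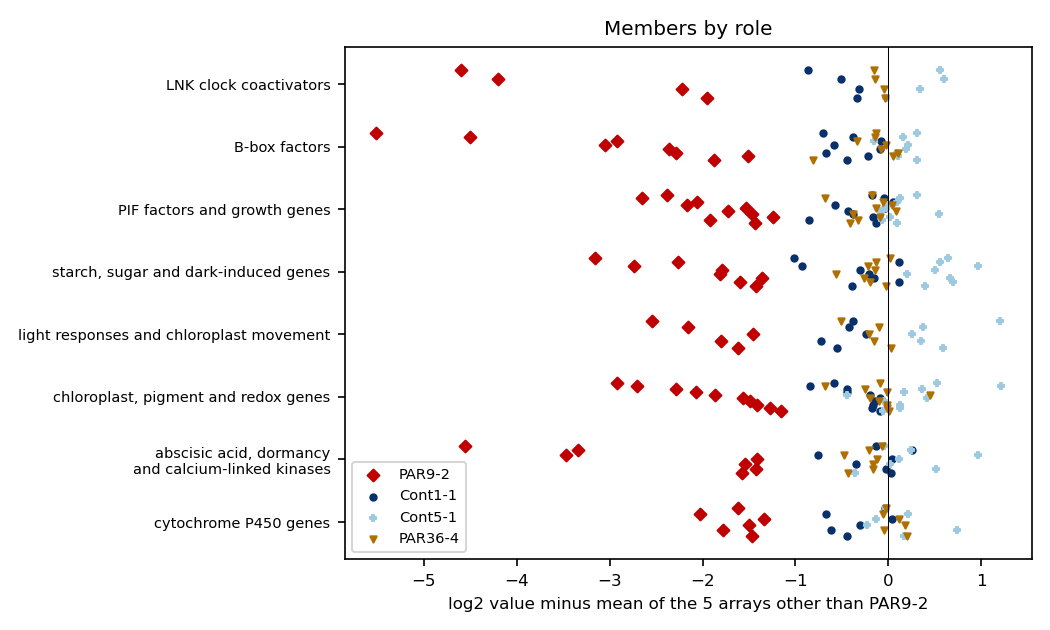
Members grouped by role (rows), plotted as log2 value minus the mean of the 5 arrays other than PAR9-2, for PAR9-2 (red diamonds), Cont1-1, Cont5-1 and PAR36-4. The median for PAR9-2 was -3.21 in the LNK genes and -1.56 in the P450 genes. Of the 58 members shown, 51 lay below 0 in Cont1-1, 47 in PAR36-4 and 13 in Cont5-1. PAR18-2 and Cont2-3 are not shown, and the matching share over all features was not computed.

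For 24 member loci the array held 32 further features, and PAR9-2 was the lowest array on all 32. Of these, 16 met the full rule themselves, so their low values are part of the choice, and the other 16 belong to loci chosen by it. LNK4, LNK2, PIF4, PIF5 and BBX24 each had another feature with a gap between 1.43 and 3.51, and ASN1 had 2 at 2.56 and 2.41. PIF7, CYP71B2 and SEN1 were members through a dimmer feature. Their brighter features missed the rule, with gaps of 0.94, 0.89 and 0.95 and differences of -1.15, -1.62 and -1.30. The same held for AT3G13062, AT2G32090 and AT1G67900. Their brightest features had gaps of 0.33, 0.93 and 0.92 and differences of -0.56, -1.03 and -1.28. Over the 32 further features the smallest gaps were 0.17 at AT5G67390 and 0.27 at SEN1. At PORA and AT5G67390 the further feature averaged 5.25 and 6.95 over the other 5 arrays, below the low-mode limit of 7.09. The feature used for PORA averaged 13.61. Features of a locus read the same RNA on the same arrays and may share probes. The values of the 32 are therefore a description and no independent support.

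In the gene order of RefSeq assembly TAIR10.1, 5 pairs of members were direct neighbours, with 7.52% of the members in such a pair. Among the 155 genes low in PAR36-4 this share was 7.1%. The share for loci drawn without regard to their level was not computed, so no background stands beside these values. The pairs were CIPK20 and DOG1, CYP71B4 and CYP71B26, HFR1 and AT1G02350, AT3G13062 and SRF4, and GPX7 and AT4G31875. The genes of the last 2 pairs overlap in that table, and AT3G13062 met the rule in its dimmest feature only. Double-stranded cDNA was labelled, so signals of overlapping genes cannot be told apart, and cross-reaction within gene families was not checked because the files hold no probe sequences.

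The time of day at which these genes are known to be high was compared through a morning and an evening list. Of 16 morning and day phased genes, 8 were members (LNK1, LNK2, LNK3, LNK4, PIF4, PIF5, SIG5 and GBSS1), PAR9-2 was the lowest array for 12 and the median difference was -1.41. CAT2, GUN4, HEMA1 and GUN5 were lowest in PAR9-2 by gaps of 0.19 to 0.41 only. ELIP1, ELIP2, PSY and LWD1 were not lowest there, with differences of 0.04, 0.57, 0.16 and -0.08.

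Evening and night phased genes stood the other way in PAR9-2. None of the 14 was a member, PAR9-2 was the highest array for 8 and the lowest for 2, and the median difference was 1.08. COR27, a clock regulator known to peak in the afternoon and evening, had 11.40 in PAR9-2, 6.23 and 6.16 in the other MYBPAR lines and 10.68, 5.94 and 4.09 in Cont1-1, Cont2-3 and Cont5-1. PRR3 had 12.91 in PAR9-2 against 7.89 to 12.42, and BOA 10.30 against 6.27 to 9.20. TOC1 had 13.72 in PAR9-2 and 13.64 in Cont1-1, so these arrays were close. GI, at 11.13 in PAR9-2 against 11.22 to 12.62, and BBX19, at 7.03 against 7.83 to 9.56, were lowest in PAR9-2. BBX19 was next lowest in Cont1-1 and highest in Cont5-1, as was the morning gene CCA1. The phase of single listed genes was not checked here, so the place of BBX19 on the evening list is uncertain. FKF1, LUX, GRP8 and CAT3 differed by 1.24, 1.04, -0.02 and 0.03, and PAR9-2 was neither highest nor lowest for these. ELF4, ELF3, GRP7 and AT4G33980 were highest there, with differences of 2.20, 0.59, 0.85 and 2.85. They exceeded the next array, Cont1-1, by only 0.31, 0.14, 0.09 and 0.16. Of the evening list only BOA stood at least 1 above all other arrays, by 1.1. The cold response factors CBF1, CBF2 and CBF3, known to be gated to the day, had differences of -1, -2.37 and -2.14. Of these 3, 0 were members. CBF1 was lower still in PAR36-4, at 10.99 against 11.05 in PAR9-2. The mean of the 3, relative to the mean of the other 5 arrays, was -1.84 in PAR9-2, -0.94 in PAR36-4 and -0.92 in Cont5-1. It was 0.72 in PAR18-2, 0.48 in Cont1-1 and 0.66 in Cont2-3. Low values of these genes were thus not particular to PAR9-2.

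**Figure D4:**
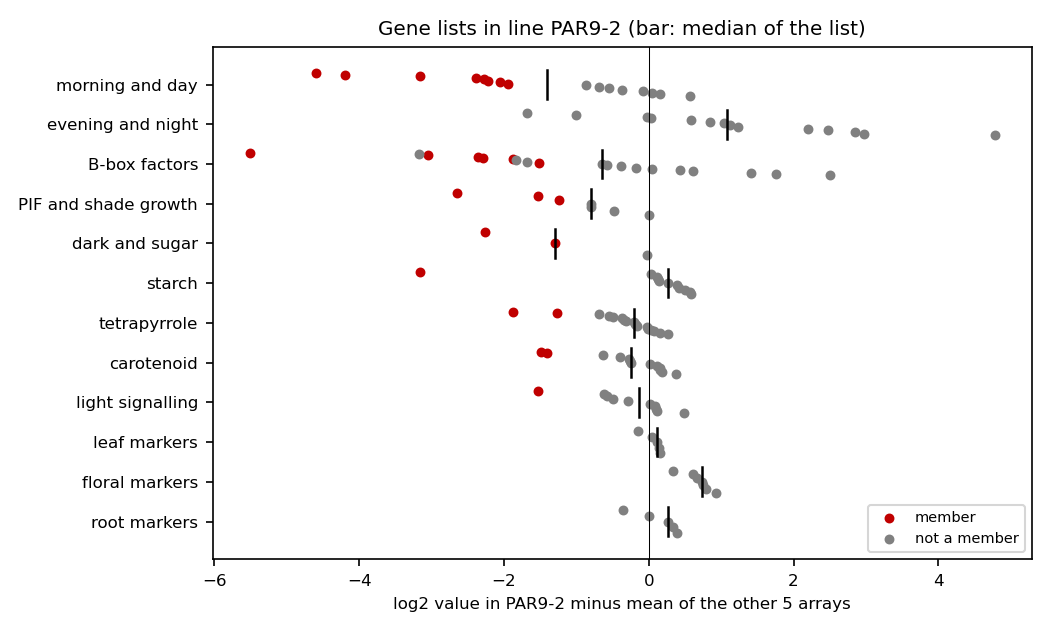
Log2 value in PAR9-2 minus the mean of the other 5 arrays for the genes of 12 lists (rows), with members in red, other genes in grey and a bar at the median of each list. The morning list lies left of 0 with a median of -1.41, the evening list right of it with a median of 1.08, and the leaf markers lie close to 0.

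The other 5 arrays were not equal in these genes, and the rule did not use which line was which. Cont1-1 was the lowest of the 5 for 69 of the 133 members, 51.9%, against 21.0% of all features with a mean of 8 or more. PAR36-4 was lowest for 38 members, 28.6%, against 18.1%. At the other end, Cont5-1 was the highest for 71 members, 53.4%, against 26.9%. The mean of the evening list, relative to the mean of the 5, was 1.26 in Cont1-1, 1.25 in PAR9-2 and -1.45 in Cont5-1, and lay between -0.05 and 0.20 in PAR18-2, PAR36-4 and Cont2-3. The mean of the morning list was -0.36 in Cont1-1 and 0.32 in Cont5-1, against -1.54 in PAR9-2. Cont1-1 thus had evening genes as high as PAR9-2 and morning genes less low. How the list means relate to the members was not tested, nor was whether the hour of harvest differed between the plants.

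Within the role groups the next lowest array varied. Cont1-1 was next lowest for all 4 LNK genes, 6 of 8 B-box genes, 8 of 10 chloroplast, pigment and redox genes, 4 of 5 light response genes and 5 of the 6 P450 genes. It was next lowest for 4 of 8 starch, sugar and dark-induced genes, with PAR18-2 and PAR36-4 next lowest for 2 each, and for 3 of the 7 genes of abscisic acid, dormancy and calcium-linked kinases, with PAR18-2 next lowest for 2. For the 10 PIF and growth genes it was next lowest in 5 and PAR36-4 in 4, among them IAA29 and IAA34.

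**Figure D5:**
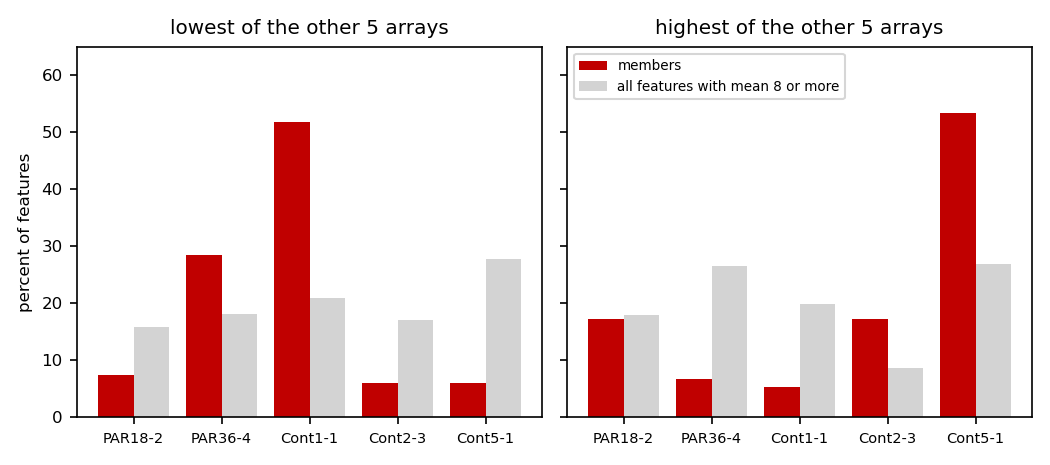
Percent of features (vertical axis) for which each of the 5 arrays other than PAR9-2 was the lowest (left) or the highest (right) of the 5, for the members (red) and for all features with a mean of 8 or more (grey). Cont1-1 was lowest for 51.9% of the members and Cont5-1 highest for 53.4%.

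The study asked which transcripts differ between plants with and without VvMYBPAR, and no member differed by the test between the 2 other MYBPAR lines and the empty vector lines. PAR18-2 and PAR36-4 were compared with the 3 empty vector lines without PAR9-2, by limma across all 37118 features. No member passed after Benjamini-Hochberg adjustment (limma, lowest adjusted p = 1), where 0% of all features passed. At an unadjusted p under 0.05 limma gave 2 of the 133 members, 1.5%, and 2.32% of all features, and without moderation across features 0 members passed after adjustment. The median difference was -0.03 in the members and 0.01 over all features. The median half-width of the members' 95% intervals was 0.59, and the lowest and highest interval bounds were -1.97 and 2.12. Single genes may thus differ by as much as their interval allows.

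Among the members with the largest gaps, differences between these lines went in both directions. BBX16 had a log2 difference of 0.05 (SE 0.36, 95% interval -0.87 to 0.97) and LNK3 one of 0.04 (SE 0.45, interval -1.09 to 1.18). The intervals were narrower for CIPK20, at 0.10 (SE 0.14, -0.26 to 0.46), and PIF4, at 0.01 (SE 0.13, -0.32 to 0.34). GBSS1 had 0.13 (SE 0.50, -1.15 to 1.40). AT2G15020 had 0.60 (SE 0.40, -0.43 to 1.63) and AT2G46670 had 0.40 (SE 0.18, -0.05 to 0.85). The 2 members under an unadjusted 0.05 were DOG1, with -0.42 (SE 0.13), and AT5G59080, with -0.54 (SE 0.20), in limma with an adjusted p of 1 for both. DOG1 had 9.01 and 9.10 in PAR18-2 and PAR36-4, below the 9.56, 9.32 and 9.55 of Cont1-1, Cont2-3 and Cont5-1. Both other MYBPAR lines lay below all 3 empty vector lines in 12 members, 9.02%, against 5.47% of features with a mean of 8 or more. They lay above all 3 in 2 members, 1.5%, against 11% of those features. The 12 held DOG1, ACS8, CIPK17, BZO2H3 and SEN1, and the 2 were AT2G46670 and AT1G02350.

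With PAR9-2 included, 0 of 133 members passed limma over all 6 arrays (lowest adjusted p = 0.915), where 0.00539% of all features passed, and 2 members and 4.32% of all features had an unadjusted p under 0.05. The members' MYBPAR minus empty vector differences lay below 0 in all 133, with a median of -0.64. PAR9-2 is 1 of the 3 MYBPAR samples and chose the members, so this direction follows from the choice. For CIPK20 the difference was -1.44 (SE 1.23) over all 6 arrays, and 0.10 without PAR9-2.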

How the data were processed

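RNA of 6 samples, 3 MYBPAR and 3 empty vector lines grouped by the labels, was read on single-colour NimbleGen arrays. The authors deposited linear intensity values made by RMA, per the submitters' processing notes. RMA as a method corrects background, normalizes arrays by quantiles and summarises probes, so a general rise or fall of transcripts would not be seen. The sources used here do not name its version or the genome build. A second deposited table holds log2 values, which equal log2 of the intensities to within 1.66e-06.

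The rule was applied to log2 intensities of 37118 features. Of 32627 loci, 31993 matched RefSeq TAIR10.1, used for names and gene order only. The low-mode limit is the minimum between the 2 modes of the mean log2 values. Differences between groups were fitted with limma 3.58.1 in R 4.3.3 (lmFit, eBayes without trend or robust fit), with Benjamini-Hochberg adjustment over all features at 0.05. Exact permutation of 3 against 3 or of 2 against 3 samples cannot go below p = 0.1. The fit was tested on simulated data. Arrays carry no counts, so their number limits the precision. P-values measure the spread between lines with 1 array each.

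The members, gene lists and tests were chosen with earlier results of these data known. Genes named are the 30 largest gaps, members of the lists, genes next to the thresholds and, chosen after values were seen, the other named members and the role groups. Promoter sequences were not used here, so no motif shares were computed. The alternatives were another quantile normalization, median centring, the series table, log2(value + 32), other thresholds, locus means, other variance models, a filter on dim features, the replicate number as a block and leaving out each sample.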

Additional observations from a re-analysis of the deposited data

How the results depend on the processing

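The number of members stayed between 116 and 199 under the other normalizations, offsets, locus means and thresholds tried, except that a gap of 1.5 left 51, all among the 133. It ranged from 134 to 243 when 1 of the other 5 arrays was left out. It was 243 without PAR36-4, 185 without Cont1-1, 141 without Cont5-1 and 134 without PAR18-2 or Cont2-3. Fewer arrays make the rule easier to meet, and the rise differed with the array left out. Taking each locus's brightest feature before the rule, an alternative chosen after seeing the data, gave 127, all among the 133. Of 470 gaps of 47 named members recomputed under alternatives, 0 changed sign, 26 moved by more than the SD of the other 5 arrays and 6 fell under 1, the lowest being 0.86. Leaving out an array cannot lower a gap, and the series table holds the same values. For these alternatives a kept sign was thus fixed in advance. Without PAR9-2, limma called 0 features; eBayes with trend and robust called 2, and leaving out 1 further sample gave 0 to 2. Over all 6 arrays it called 2, against 0 with no moderation, and 0 to 3 when 1 sample was left out, 0 without each sample other than PAR18-2. No member was called in any of these fits. With the replicate number as a block both comparisons gave 0 calls. Deviations of same-numbered samples correlated at 0.295, -0.058 and 0.239, so the numbers were not taken to pair the samples. The cause of these changes was not tested. With 1 array per line, no value here separates the line PAR9-2 from its array, and signals in the low mode limit the distances of 14 members.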
